A study of Homo sapiens with 6 samples.

Results

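NTRK3, CACNA1D, KIRREL3, MCTP2, WIPF1 and IGFN1 were among the genes with the steepest losses of transcript when BCLAF1 was depleted in A549, an epithelial cell line from a human lung carcinoma. These 6 genes, of 29122 in the deposited count table, were chosen by symbol because of that loss, so the loss itself is described below without a test. Polyadenylated RNA was sequenced from 3 control and 3 BCLAF1-depleted libraries. All cells had been stably transduced with lentiviral particles. Control cells carried a short hairpin RNA against firefly luciferase, which human cells lack, and BCLAF1-depleted cells a hairpin against BCLAF1, whose nuclear product acts in transcription and in the handling of RNA. The sample titles write siBCLAF1, whereas the protocol describes hairpins. The sources name 1 hairpin target per group, and nothing in them says that the replicates were separate cultures, so the p-values reflect library-to-library spread only, and that spread may be technical.

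The 6 genes have unlike roles. NTRK3 codes for TrkC, the receptor tyrosine kinase that binds the neurotrophin NTF3 and signals through adaptors such as SHC and FRS2 to the RAS, PI3-kinase and phospholipase C branches. CACNA1D codes for a pore-forming subunit of L-type voltage-gated calcium channels, which open with auxiliary beta and alpha2delta subunits and are best known in neurons, endocrine cells and the cardiac pacemaker. KIRREL3 codes for a cell adhesion protein of the immunoglobulin superfamily, related to the slit diaphragm protein nephrin and known at synapses. MCTP2 codes for a membrane protein with several calcium-binding C2 domains. WIPF1 codes for WIP, which binds and stabilises the actin nucleation factors WASP and N-WASP and is best known in lymphocytes. IGFN1 codes for a large protein with immunoglobulin and fibronectin type III domains known from skeletal muscle. A neural character is therefore part of the background of NTRK3, CACNA1D and KIRREL3 more than of WIPF1 and IGFN1.

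The sequence in front of the genes is shown because 5 of them share a feature there that the choice of genes did not use. In the 250 bases before the RefSeq start (build GRCh38.p14, all 6 genes matched by symbol), the GC box GGGCGG was present on either strand in NTRK3, CACNA1D, KIRREL3, MCTP2 and WIPF1, and in 42.6% of 35116 such windows. IGFN1 had none. The AP-1 letters TGANTCA (6.57% of all windows), the E-box CACGTG (6.34%), the CCAAT box CCAAT (32.0%), the TATA box TATAAA (10.7%), the TEAD letters GGAATG (11.9%) and the ETS core CCGGAA (14.5%) were in none of the 6 windows. Matches were sought on both strands. None of these motifs contains another, but GC boxes can overlap one another. A match is a stretch of letters and not a measured binding site. The windows behind these percentages belong to 27305 symbols, whether or not the gene was tested here, and a symbol can have several. For each of the 6 genes only 1 window was read, although RefSeq has 4 starts for WIPF1 and 2 for MCTP2. Which starts are used in A549 was not determined. Shares among tested genes alone were not computed, so whether 5 of 6 with a GC box is unusual for them was not tested. The 2 genes with the lowest fractions left and the 1 without a GC box are printed 5′ to 3′ on the strand of the gene, with GC boxes in capitals:
NTRK3: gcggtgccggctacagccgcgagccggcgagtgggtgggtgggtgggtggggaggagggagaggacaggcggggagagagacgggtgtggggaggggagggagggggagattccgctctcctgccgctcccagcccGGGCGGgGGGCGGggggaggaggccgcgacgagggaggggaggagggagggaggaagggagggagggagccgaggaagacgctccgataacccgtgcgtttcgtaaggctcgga
CACNA1D: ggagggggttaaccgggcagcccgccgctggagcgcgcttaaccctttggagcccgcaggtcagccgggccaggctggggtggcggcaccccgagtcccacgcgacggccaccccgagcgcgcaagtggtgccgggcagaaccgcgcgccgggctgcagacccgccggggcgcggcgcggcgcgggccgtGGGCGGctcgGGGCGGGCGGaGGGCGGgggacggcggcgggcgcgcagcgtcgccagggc
IGFN1: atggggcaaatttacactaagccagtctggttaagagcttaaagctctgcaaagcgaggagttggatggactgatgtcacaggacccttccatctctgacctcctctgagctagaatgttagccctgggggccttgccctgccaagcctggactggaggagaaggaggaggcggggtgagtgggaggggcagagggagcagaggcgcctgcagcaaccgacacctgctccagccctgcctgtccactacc
These lie at chr15:88256740-88256989 (minus strand), chr3:53494361-53494610 (plus strand) and chr1:201190574-201190823 (plus strand). The RefSeq start of CACNA1D lies 165648 bases inside the GENCODE release 29 gene, so its window is not that of the longest annotated transcript. The windows held 23 CG dinucleotides for NTRK3, 41 for CACNA1D, 23 for KIRREL3, 26 for MCTP2 and 36 for WIPF1, whereas IGFN1 held 4. The median was 11.0 over all windows and was not computed for tested genes alone.

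BCLAF1 itself checks the labels: its 3 control libraries had 211, 199 and 203 CPM and its 3 BCLAF1-depleted ones 39.0, 35.7 and 53.1 CPM (log2 fold change -2.26 ± 0.16 SE, edgeR quasi-likelihood adjusted p = 2.31e-05). Levels in CPM are read counts divided by library totals and TMM factors. Library totals ranged from 33409158 to 43928927 counts. Of 15907 tested genes, 5697 (35.8%) passed an adjusted p of 0.05, 2827 (17.8%) higher and 2870 (18.0%) lower after depletion. Lower genes were 50.4% of these calls, and 74.1% with library totals alone. The markers of the labelled cell type were high: the keratin genes KRT8 and KRT18 were at 16000 ± 822 and 15100 ± 245 CPM (SD, n = 3) in control cells, although KRT19 was at only 0.280 CPM. Of markers of other cell types, the 13 neuronal genes listed summed to 70.6 to 75.9 CPM in control and 96.7 to 140.0 CPM in BCLAF1-depleted libraries (without a further TUBB3 identifier, ENSG00000198211.8, at 141 and 174 CPM, 0.30 ± 0.13, edgeR adjusted p = 0.0911), and the 10 fibroblast genes to 23.0 to 25.6 and 15 to 17 CPM. The 11 muscle genes summed to 213 to 237 and 202 to 468 CPM, most of it TNNT1, and the 8 leukocyte genes to 1.42 to 2.91 and 2.54 to 3.85 CPM. None of the marker genes listed was at 0 in every library, and the part of other cells in the results below was not tested. In such bulk samples, fewer cells with a transcript and less of it per cell cannot be told apart.

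NTRK3 (ENSG00000140538.15) stood first. Control libraries, in the order of their replicate numbers, held 34.0, 31.1 and 34.6 CPM, and BCLAF1-depleted libraries 3.11, 2.64 and 2.19 CPM. The lowest control library was thus far above the highest BCLAF1-depleted one, and 7.95% of the control mean was left. The log2 fold change was -3.65 ± 0.16 (SE), the most negative of the 10172 genes that averaged 5 CPM or more. The counts behind these levels were 1503, 1381 and 1665 in control and 109, 90 and 71 in BCLAF1-depleted libraries.

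CACNA1D (ENSG00000157388.12) was at 16.4, 16.3 and 16.4 CPM in control libraries and 2.28, 1.06 and 1.88 CPM after depletion. The controls were almost identical (coefficient of variation 0.437%), while BCLAF1-depleted replicate 2, with 36 counts, lay below replicates 1 and 3 with 80 and 61 (coefficient of variation 35.9%). The log2 fold change was -3.23 ± 0.23, the third among genes of that level, after NTRK3 and the collagen gene COL5A1 (-3.55).

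KIRREL3 (ENSG00000149571.9) was at 11.3, 12.5 and 14.1 CPM in control libraries and 2.11, 1.91 and 1.82 CPM after depletion, with a log2 fold change of -2.70 ± 0.16. It is the member with the smallest change. Just beside it in the order of genes were BMP2 (-2.73), COL4A1 (-2.69) and ADAMTS9 (-2.67), so nothing separates the 6 genes from others of similar loss.

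MCTP2 (ENSG00000140563.13) varied little within groups. Its level was 11.1, 11.4 and 11.2 CPM in control libraries and 1.62, 1.64 and 1.79 CPM after depletion, a log2 fold change of -2.74 ± 0.15, with coefficients of variation of 1.63% in control and 5.3% in BCLAF1-depleted libraries.

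WIPF1 (ENSG00000115935.15) was at 18.3, 19.9 and 21.5 CPM in control libraries and 2.65, 2.73 and 2.09 CPM after depletion, a log2 fold change of -3.0 ± 0.16, with replicate 3 the lowest.

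IGFN1 (ENSG00000163395.15) was the most abundant of the 6, at 164, 145 and 140 CPM in control libraries and 13.9, 21.3 and 23.9 CPM after depletion (log2 fold change -2.93 ± 0.20). Here BCLAF1-depleted replicate 1 was the lowest library, whereas for NTRK3, CACNA1D and KIRREL3 that library was the highest of the BCLAF1-depleted ones. The counts behind the BCLAF1-depleted levels were 487, 727 and 775.

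**Figure D1:**
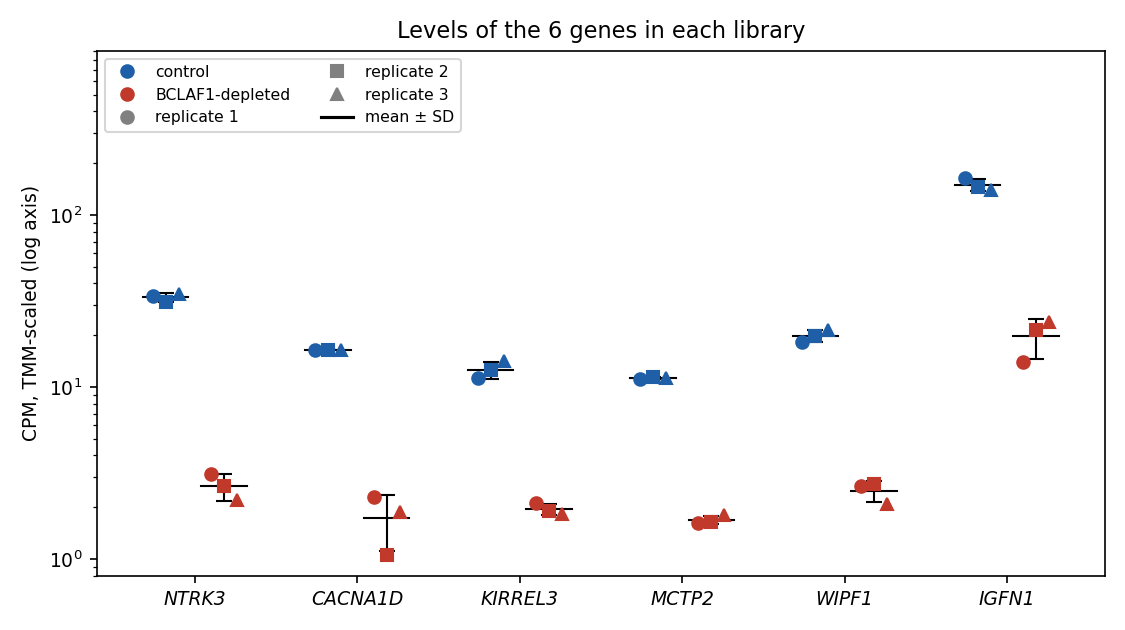
Level of each of the 6 genes in CPM (log axis) in the 3 control and 3 BCLAF1-depleted libraries, with the symbol giving the replicate and lines the mean ± SD. For every gene the control points lie above the BCLAF1-depleted points, and IGFN1 is the highest in both groups.

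**Figure D2:**
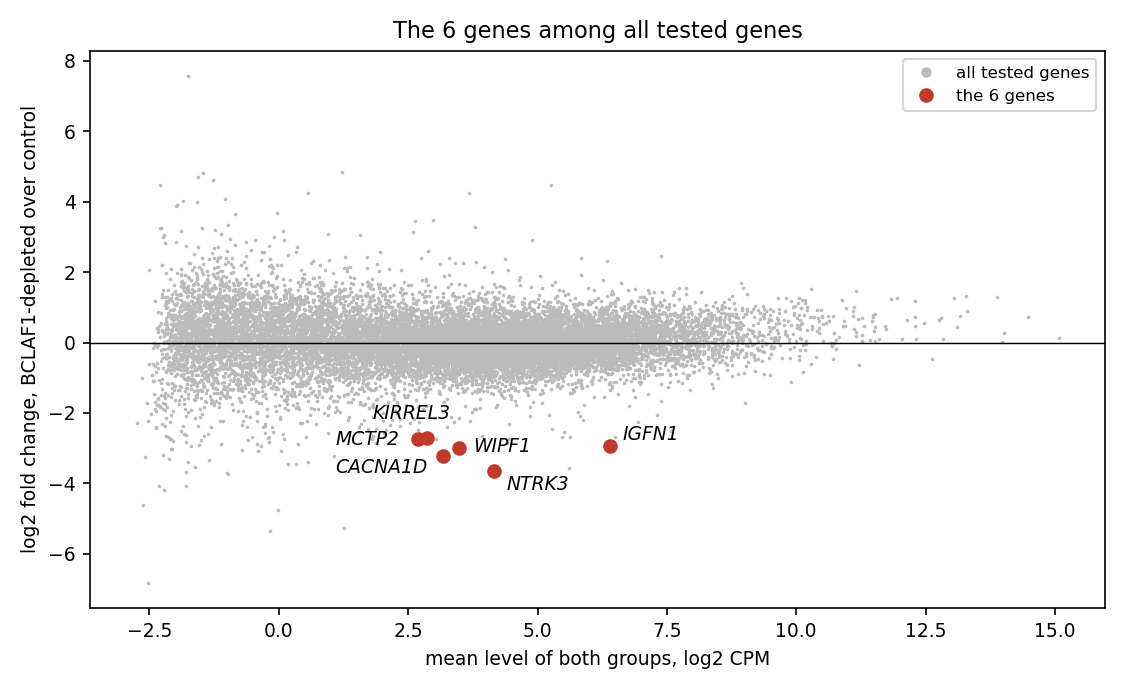
Log2 fold change (BCLAF1-depleted over control) against mean level in log2 CPM for 15907 tested genes, with the 6 genes in red. They lie at the lower edge of the cloud for their levels, between -3.65 for NTRK3 and -2.70 for KIRREL3.

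Groups without overlap were found for all 6 genes, as the choice of the genes made likely, and for 8254 (51.9%) of tested genes, of which 4237 (26.6%) were lower after depletion. Losses of this size were rare: 149 (0.937%) of tested genes had a fitted level at least 4-fold lower. In the order of all tested genes, which includes scarcer transcripts, NTRK3 was at place 12, CACNA1D 22, WIPF1 30, IGFN1 33, MCTP2 48 and KIRREL3 53. In control cells NTRK3 ranked above 72.2% of tested genes, and after depletion above 28.2%. IGFN1 went from above 93.6% to above 61.9%, and the other 4 from between 49.4 and 61.2% to between 23.2 and 27.6%.

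The deposited FPKM values, which divide by gene length, allow levels to be compared roughly between genes. The lengths used for them are not known here, and the order below depends on them. In control cells IGFN1 had 12.2 ± 0.958 FPKM (SD, n = 3). WIPF1 (2.90 ± 0.251) and KIRREL3 (2.81 ± 0.331) followed and did not differ beyond their spread. CACNA1D had 1.67 ± 0.0208, and NTRK3 (1.27 ± 0.0777) and MCTP2 (1.25 ± 0.0208) again lay within their spread of each other. NTRK3, second by counts, was thus near the bottom by FPKM, beside annotated exons that sum to 26.8 kb. Which of these exons are used in A549 was not tested. After depletion the order was IGFN1 (1.29 ± 0.199), KIRREL3 (0.357 ± 0.0764), WIPF1 (0.300 ± 0.0721), MCTP2 (0.153 ± 0.0153), CACNA1D (0.150 ± 0.0656) and NTRK3 (0.0833 ± 0.0252). KIRREL3 and WIPF1, MCTP2 and CACNA1D, and CACNA1D and NTRK3 did not differ beyond their spread.

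Against the control mean, the median of the 6 genes was -2.88, -2.84 and -2.96 on the log2 scale in BCLAF1-depleted replicates 1, 2 and 3, with ranges of -3.43 to -2.58, -3.95 to -2.73 and -3.93 to -2.65. The library with the deepest loss differed between genes: replicate 3 for NTRK3 (-3.93), replicate 2 for CACNA1D (-3.95) and replicate 1 for IGFN1 (-3.43). For 811 other genes called lower by at least 2-fold, the median was -1.21 in replicate 1, -1.58 in replicate 2 and -1.48 in replicate 3, so that replicate 1 had the shallowest change of those genes. For the 811 genes, unlike the 6, part of a count was added before taking logarithms, which draws the values of scarce genes toward no change. Both sets of genes were chosen on these same libraries, and the difference between them was not tested. BCLAF1 was at 39.0 CPM in replicate 1, between the other libraries.

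The genes most like each of the 6 over the 6 libraries were named by Pearson correlation of log2 CPM, as a description without a p, since the libraries fall into 2 groups and any gene that differs between them correlates. For NTRK3 they were the plexin gene PLXNB1 (0.9998), the deubiquitinase gene STAMBPL1 (0.9997) and ZNF275 (0.9995). For CACNA1D they were FSTL1 (0.9997), the zinc transporter gene SLC39A13 (0.9996) and the basement membrane gene NID2 (0.999). For KIRREL3 they were NBEA (0.9992), the natriuretic peptide receptor gene NPR3 (0.9988) and TM4SF4 (0.9987). For MCTP2 they were COL5A1 (0.9989), the mucin gene MUC13 (0.9989) and TLE2 (0.9982). WIPF1 had TPPP (0.9995), DOCK11 (0.9994) and the kinetochore gene SPC25 (0.999), and IGFN1 had MGAT5B (0.9989), IFT88 (0.9978) and LARGE (0.9977). Between 39 and 114 of 10171 genes reached 0.99 with a given member, fewest for IGFN1. Among the 6 genes themselves the values ran from 0.951 for CACNA1D with IGFN1 to 0.998 for KIRREL3 with WIPF1. The sizes of change differed widely at like correlation, from -0.46 for SPC25 to -3.55 for COL5A1.

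The remaining comparisons ask whether relatives and partners of the 6 genes moved too. The gene lists below were written from general knowledge and leave out the 6 genes, and their counts are to be read against 35.8% called, 18.0% lower, and a median log2 fold change of 0.02 over all tested genes. Calls depended on the controls: without control replicates 1, 2 and 3, 2948 of 16261 (18.1%), 2938 of 16257 (18.1%) and 3188 of 16203 genes (19.7%) passed.

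For NTRK3, the related receptor gene NTRK2 was scarce, at 0.178 ± 0.107 and 0.256 ± 0.0948 CPM (SD, n = 3; 0.53 ± 0.54, edgeR adjusted p = 0.471). BDNF, which codes for a ligand of the NTRK2 product, was named after its values were seen. It was at 12.5, 12.3 and 12.3 CPM in control and 17.3, 17.7 and 16.3 CPM in BCLAF1-depleted libraries. By CPM it thus rose while NTRK3 was lower (0.47 ± 0.12, edgeR adjusted p = 0.012). Its FPKM, 1.54 ± 0.01 in control and 1.76 ± 0.286 in BCLAF1-depleted libraries, lay within their spread of each other. Its call under the other settings is not given here. NTF3, the ligand of NTRK3, is not analysed here. Of 42 tested genes of neurotrophin signalling, 16 fell and 6 rose (52.4%), with a median of -0.26. With length and GC trends removed 10 fell and 5 rose (35.7%, beside 34.0% of all genes in that fit). Without control replicates 1, 2 and 3 the calls were 8 of 42, 11 of 43 and 10 of 43. Of the genes that fell most, the adaptor gene SHC2 went from 0.385 ± 0.121 to 0.0581 ± 0.0586 CPM (-2.65 ± 0.66, edgeR adjusted p = 0.013, and 0.0539 without control replicate 3), GAB1 from 2.46 ± 0.230 to 1.19 ± 0.106 CPM (-1.04 ± 0.20) and SH2B2 from 17.3 ± 1.12 to 10.3 ± 2.44 CPM (-0.74 ± 0.18). The kinase gene MAP2K1 fell as far as SH2B2 (-0.74 ± 0.23, edgeR adjusted p = 0.0329). The largest rise in the list was under the symbol PIK3R2, a regulatory subunit of PI3-kinase, and is uncertain. The table has 2 overlapping PIK3R2 identifiers: ENSG00000268173.1, the one counted in the list, went from 25.8 ± 1.95 to 57.6 ± 20.1 CPM (1.16 ± 0.22, edgeR adjusted p = 0.00415), while ENSG00000105647.13 went from 52.2 ± 3.02 to 38.3 ± 6.87 CPM (-0.45 ± 0.14, edgeR adjusted p = 0.0352), and the counting could split reads between them. Rises were next largest for the adaptor GAB2 (0.76 ± 0.15) and BEX3, listed as NGFRAP1 (0.60 ± 0.19), which was not called without any 1 of the 3 controls or without BCLAF1-depleted replicate 2 or 3 (edgeR adjusted p 0.0751 to 0.109), with library totals alone (0.11), with length and GC trends removed (0.353) or on FPKM.

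For CACNA1D, the other L-type pore genes were near the floor of 3 counts (0.0683 to 0.0898 CPM): CACNA1C, CACNA1F and CACNA1S averaged 0.0434, 0.0220 and 0.0722 CPM in control cells and were not tested. The auxiliary subunit gene CACNB2 fell steeply, from 2.35, 2.68 and 2.22 CPM in control to 0.655, 0.352 and 0.524 CPM in BCLAF1-depleted libraries (-2.24 ± 0.27, edgeR adjusted p = 0.000375). STAC, whose product binds L-type channels, fell from 0.911 ± 0.167 to 0.281 ± 0.167 CPM (-1.67 ± 0.41, edgeR adjusted p = 0.0121, and 0.0526 without control replicate 2). CACNB4, at 0.330 ± 0.0854 and 0.108 ± 0.0603 CPM, fell by 1.58 on the log2 scale (SE 0.50, edgeR adjusted p = 0.0337), a call lost without any 1 of 5 libraries (0.0702 to 0.137) with length and GC trends removed (0.0677), with DESeq2 (0.0603) and on FPKM. Rises were seen for CACNG6 (1.54 ± 0.20), CACNG8 (1.16 ± 0.21), from 23.5 ± 2.24 to 52.5 ± 17.1 CPM, and the intracellular release channel gene RYR1 (1.34 ± 0.35, edgeR adjusted p = 0.0156, and 0.0772 and 0.0703 without control replicates 1 and 2). Together, of 30 tested calcium channel genes 7 fell and 5 rose (40%), with a median of -0.08 that became 0.07 with length and GC trends removed. The calls were 7 of 32 without control replicate 1, and 3 of 11, all higher, when only genes of at least 5 CPM were tested.

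For KIRREL3, its paralogue KIRREL1, listed as KIRREL, had 15.7, 15.3 and 16.3 CPM in control and 16.2, 11.1 and 12.0 CPM in BCLAF1-depleted libraries (-0.27 ± 0.15, edgeR adjusted p = 0.191). BCLAF1-depleted replicate 1 lay within the controls, and without it KIRREL1 passed (-0.47 ± 0.10, edgeR adjusted p = 0.00614). KIRREL2 was at 0.138 ± 0.0616 and 0.322 ± 0.142 CPM and was not tested. Of 38 tested genes of slit diaphragm and immunoglobulin adhesion, 9 fell and 6 rose (39.5%), with a median of -0.11 (-0.02 with length and GC trends removed), and 9 of 39 were called without control replicate 3. CHL1, a neural adhesion gene of the L1 family, fell as far as KIRREL3, from 6.49, 6.17 and 5.65 CPM to 1.20, 0.703 and 0.801 CPM (-2.75 ± 0.22, edgeR adjusted p = 4.12e-05). The synaptic adhesion genes NLGN1 (-2.07 ± 0.24) and SDK1 (-1.86 ± 0.21) fell as well. In the other direction, NRCAM, of the same L1 family, rose from 3.82, 4.26 and 4.13 CPM to 15.5, 13.8 and 16.8 CPM (1.92 ± 0.14, edgeR adjusted p = 2.34e-05), CADM2 from 2.74 ± 0.263 to 8.55 ± 0.347 CPM (1.64 ± 0.15) and the microtubule protein gene MAP1B from 666 ± 17 to 1550 ± 506 CPM (1.22 ± 0.23). Neural adhesion genes thus moved both ways.

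For MCTP2, the only paralogue, MCTP1, fell too, but less: it was at 2.76, 2.86 and 2.47 CPM in control and 1.51, 0.967 and 1.29 CPM in BCLAF1-depleted libraries (-1.10 ± 0.22, edgeR adjusted p = 0.00509). Of 38 tested C2-domain genes, 12 fell and 6 rose (47.4%), with a median of -0.22 that became -0.06 with length and GC trends removed and -0.09 without BCLAF1-depleted replicate 2. UNC13D, which codes for a factor of granule exocytosis, fell from 38.5 ± 1.60 to 15.2 ± 1.91 CPM (-1.34 ± 0.13), and SYT16 from 0.918 ± 0.125 to 0.236 ± 0.0535 CPM (-1.95 ± 0.33). The presynaptic genes RIMS2 (1.60 ± 0.29) and UNC13A (1.40 ± 0.20) and the copine gene CPNE7 (1.54 ± 0.15) rose.

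For WIPF1, the paralogue WIPF2 was more abundant, at 69.5, 69.5 and 70.1 CPM in control and 61.5, 65.9 and 67.9 CPM in BCLAF1-depleted libraries (-0.10 ± 0.11, edgeR adjusted p = 0.5). Removing length and GC trends turned its sign, and on log2(FPKM + 1) it passed as lower (limma adjusted p = 0.0499). WIPF3 was at 0.736 ± 0.1 and 0.835 ± 0.118 CPM (0.18 ± 0.27, edgeR adjusted p = 0.636). On library totals alone and on FPKM it had the opposite sign. Of 40 tested genes of WASP and Arp2/3 actin assembly, 11 fell and 4 rose (37.5%), with a median of -0.12 (-0.04 with length and GC trends removed, and -0.29 without BCLAF1-depleted replicate 1). Without control replicates 1, 2 and 3 the calls were 8 of 41, 9 of 42 and 7 of 41, and without BCLAF1-depleted replicate 1 they were 24 of 41. Falls were largest for NCKAP1, a subunit of the WAVE complex, from 78.0, 74.1 and 70.9 CPM to 44.5, 19.1 and 19.5 CPM (-1.42 ± 0.28, edgeR adjusted p = 0.00499), for FNBP1L (-1.02 ± 0.17), whose product activates N-WASP, and for the WAVE subunit gene ABI1 (-0.95 ± 0.15). CORO1A (1.29 ± 0.24), the GTPase gene RAC1, from 271 ± 12.6 to 433 ± 59.9 CPM (0.68 ± 0.15), and ARPC1B (0.61 ± 0.16, edgeR adjusted p = 0.0163) rose. The call of ARPC1B was lost without control replicate 1 or 2 (0.0866 and 0.0871), without BCLAF1-depleted replicate 2 (0.0541) with library totals alone (0.0969) and on FPKM (limma adjusted p = 0.118 and 0.121 with pseudocounts of 1 and 0.1).

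For IGFN1, the related myosin-binding protein genes MYBPC1, MYBPC2 and MYBPC3 averaged at most 0.0591 CPM in control cells and were not tested. Of 13 tested sarcomeric genes, 5 fell and 1 rose (46.2%), with a median of -0.30 (0.02 without BCLAF1-depleted replicate 3), and 2 of 5 were called when only genes of at least 5 CPM were tested. Those that fell most were scarce: MYOM3 went from 0.652 ± 0.0266 to 0.187 ± 0.0119 CPM (-1.78 ± 0.34), SPEG from 2.19 ± 0.481 to 0.773 ± 0.238 CPM (-1.50 ± 0.29) and MYLK2 from 0.483 ± 0.0557 to 0.188 ± 0.0750 CPM (-1.35 ± 0.40, edgeR adjusted p = 0.0263, a call lost without any 1 control, 0.0692 to 0.101, or without BCLAF1-depleted replicate 1 or 3, 0.0536 and 0.0556). MYPN, which codes for the sarcomeric protein myopalladin, rose from 0.305 ± 0.0789 to 0.982 ± 0.0662 CPM (1.67 ± 0.31). Calls at these levels rest on few reads.

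**Figure D3:**
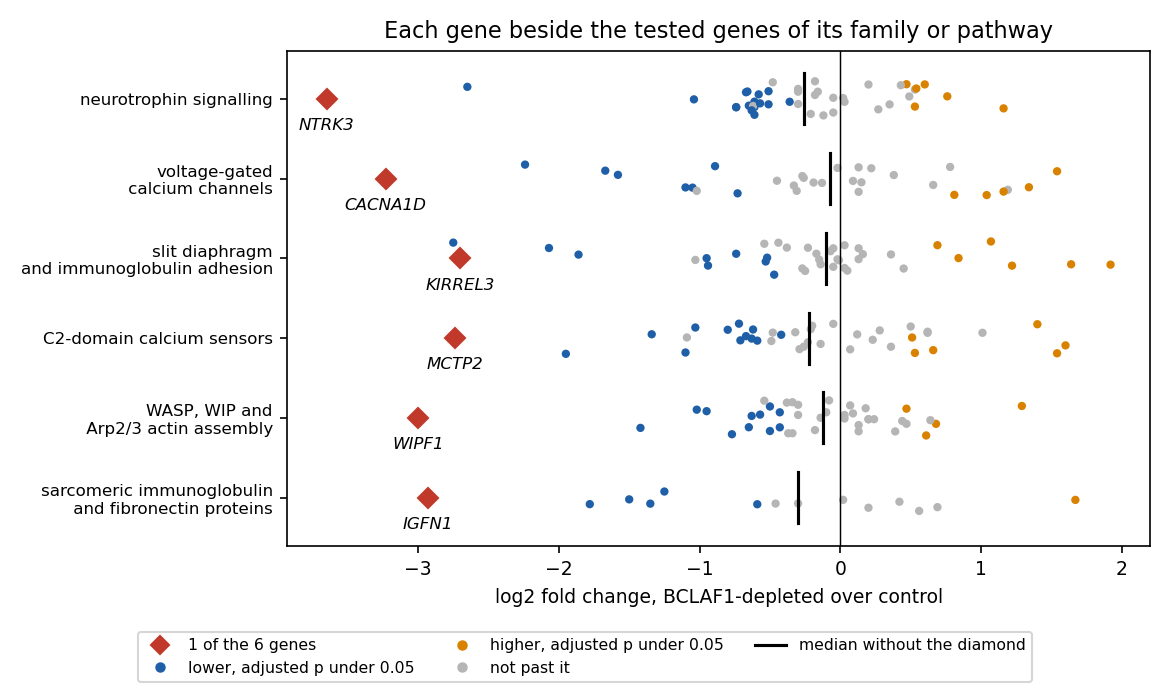
Log2 fold change (BCLAF1-depleted over control) of the tested genes of each family or pathway list, coloured by call, with the list median as a black line and the chosen gene as a red diamond. Called genes lie on both sides of 0 in each of the 6 lists, and the medians lie between -0.30 and -0.08.

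Neuronal markers did not follow the 6 genes. Of 13 listed, 9 were tested. Of these 5 rose and 0 fell by edgeR, against 17.8% higher in the background, with a median of 0.91. At an unadjusted p under 0.05 0 were lower, and 0 by DESeq2. SNAP25 (-0.12 ± 0.31) and the TUBB3 identifier in the list (-0.21 ± 0.21) were negative but not called. RBFOX3 passed narrowly (0.38 ± 0.13, edgeR adjusted p = 0.0447). Its FPKM were 7.07 ± 0.49 in control and 7.47 ± 0.45 in BCLAF1-depleted libraries (SD), within their spread. The count of 5 was not repeated with libraries left out, with library totals alone or on FPKM. The synaptic vesicle gene SYP rose from 8.83 ± 0.465 to 23.9 ± 5.39 CPM (1.44 ± 0.17, edgeR adjusted p = 0.0004) and the granule gene CHGA from 0.612 ± 0.107 to 2.84 ± 1.09 CPM (2.20 ± 0.31, edgeR adjusted p = 0.000933), both named after their values were seen.

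Position in the genome was not used to choose the 6 genes. In GRCh38, with GENCODE release 29, NTRK3 spans 397 kb on chromosome 15 (87859751 to 88256768, minus strand), CACNA1D 485 kb on chromosome 3 (53328963 to 53813733, plus), KIRREL3 580 kb on chromosome 11 (126423359 to 127003460, minus), MCTP2 252 kb on chromosome 15 (94231538 to 94483952, plus), WIPF1 123 kb on chromosome 2 (174559572 to 174682916, minus) and IGFN1 38.1 kb on chromosome 1 (201190825 to 201228952, plus). The first 5 lie in the quintile of tested genes with the longest span (at least 89.4 kb), and IGFN1 lies in the middle quintile. Over all 15775 tested genes with a position, the share called lower grew with span, from 5.74% in the shortest quintile through 10.2, 16.2 and 25.4% to 33% in the longest, while the share called higher went from 27.4 to 10.3%. The median log2 fold change went from 0.33 to -0.25. Of genes at least 4-fold lower, 65 were in the longest quintile (2.06% of it) and 19 in the shortest (0.602%). With the trends of exon length and GC content removed, the medians of the shortest and longest quintiles of span were 0.08 and -0.09, and 309 and 749 genes were called lower. The changes of the 6 genes were -3.40 for NTRK3, -3.05 for CACNA1D, -2.62 for KIRREL3, -2.43 for MCTP2, -2.76 for WIPF1 and -2.80 for IGFN1 in that fit.

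**Figure D4:**
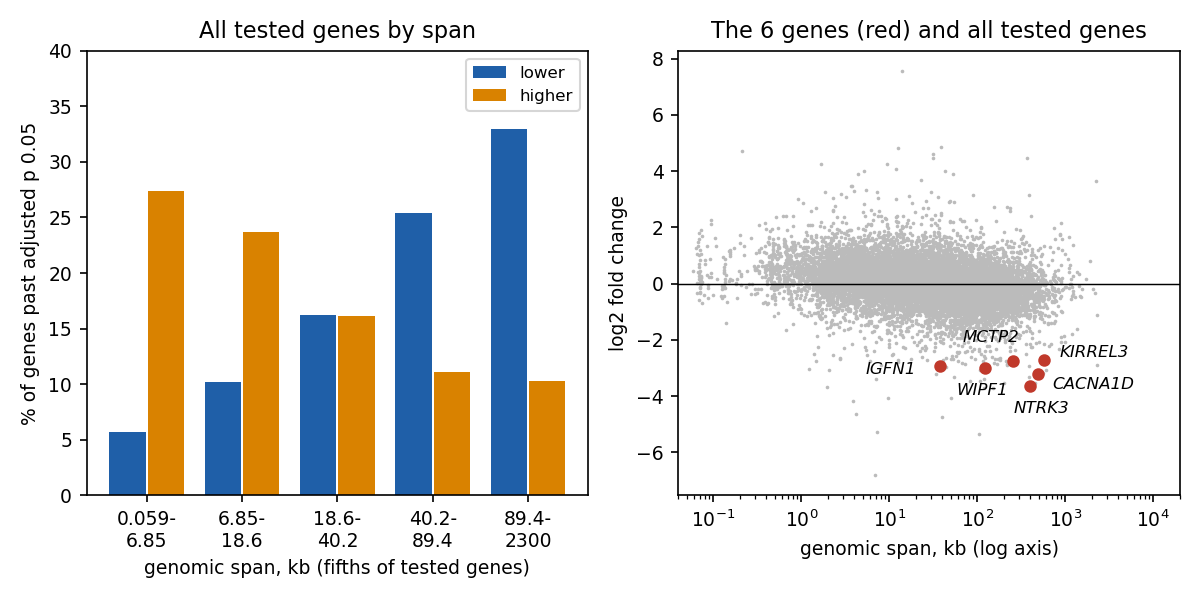
Left, percentage of tested genes called lower or higher after depletion in each quintile of genomic span (kb). Right, log2 fold change against span in kb (log axis) with the 6 genes in red, where 5 of the 6 lie in the longest quintile and the share called lower rises from 5.74 to 33%.

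Genes around the 6 moved both ways. Within 500 kb there were 54 other tested genes, of which 6 were called lower (11.1%, against 18.0% of all) and 9 higher, with a median of 0.01. That balance depended on the scaling, as it did over all tested genes. Library totals alone gave 9 lower and 2 higher (median -0.21), and limma on FPKM gave 10 lower and 3 higher with either pseudocount. Over all tested genes, library totals alone gave 3662 lower and 1283 higher of 15907 (median -0.21). Limma on FPKM gave 4453 lower and 1131 higher of 15906 with a pseudocount of 1, and 4381 and 1126 with 0.1. Without control replicates 1, 2 and 3 the calls of either direction were 7, 6 and 8 of 55 nearby genes. By edgeR 0 of 6 genes near NTRK3 were lower (0 at an unadjusted p under 0.05 and 0 by DESeq2) and 3 higher: the mitochondrial ribosomal protein genes MRPL46 (203 kb away, 0.34 ± 0.11, edgeR adjusted p = 0.0381) and MRPS11 (0.72 ± 0.21), and AEN (0.84 ± 0.11), the last 2 named after their values were seen. The call of MRPL46 was lost without any 1 control (0.0933 to 0.175), without BCLAF1-depleted replicate 2 (0.0736), with library totals alone (0.609), with no low-count filter (0.149), with the replicate block (0.0602) and on FPKM. On the other side the nearest tested gene was KLHL25, 2060 kb away, at 4.67 ± 0.285 and 3.61 ± 1.37 CPM (-0.37 ± 0.24, edgeR adjusted p = 0.25, and -0.73 with adjusted p = 0.00933 without BCLAF1-depleted replicate 1). Near CACNA1D 0 of 16 were lower by edgeR (0 at an unadjusted p under 0.05 and 0 by DESeq2) and 1 higher. Of the 16, DCP1A (0.23 ± 0.15) and CHDH (-0.01 ± 0.17) overlap CACNA1D, and neither was called. The nearest that did not overlap it on the side of lower coordinates was TKT, at 1720 ± 17.5 and 1790 ± 236 CPM (0.06 ± 0.16, with the sign turned by library totals alone, on FPKM and without BCLAF1-depleted replicate 2). On the other side it was IL17RB, at 0.469 ± 0.0831 and 0.443 ± 0.0282 CPM (-0.08 ± 0.32, with the sign turned without control replicate 2).

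Near KIRREL3 0 of 11 genes passed the edgeR test (at an unadjusted p under 0.05, 1 higher and 0 lower, and by DESeq2 0 higher and 0 lower). ST3GAL4 (0.25 ± 0.19) and RP11-688I9.4 (0.53 ± 0.41) overlap KIRREL3. The nearest that did not overlap it on the side of lower coordinates was ST3GAL4-AS1 (-0.11 ± 0.18). On the other side it was ETS1, 1460 kb away (0.26 ± 0.15, with the sign turned on FPKM, and called higher with length and GC trends removed, edgeR adjusted p = 0.0173). MCTP2 had no other tested gene within 500 kb. The nearest were RGMA, 1140 kb away, which codes for a guidance protein and rose from 0.168 ± 0.0479 to 1.28 ± 0.0921 CPM (2.90 ± 0.33, edgeR adjusted p = 0.000285), and NR2F2-AS1 (-0.48 ± 0.22, edgeR adjusted p = 0.105, but called lower with library totals alone, 0.0307, and by limma on FPKM, 0.0266 and 0.0362). Of 9 genes near WIPF1, 1 fell and 2 rose. The one that fell was its nearest on the side of higher coordinates, CHN1, from 9.39 ± 0.106 to 5.33 ± 1.02 CPM (-0.82 ± 0.16, edgeR adjusted p = 0.00523), while GPR155 on the other side was at -0.41 ± 0.24 (edgeR adjusted p = 0.198). Of the 12 genes near IGFN1, 5 were called lower (41.7%) and 3 higher, with a median of -0.31. TMEM9, 19.3 kb away, fell from 108 ± 1.59 to 74.2 ± 14.8 CPM (-0.55 ± 0.15, edgeR adjusted p = 0.0207, and 0.0656 to 0.0717 without any 1 control), and the cardiac troponin gene TNNT2 rose from 0.123 ± 0.0389 to 0.561 ± 0.109 CPM (2.15 ± 0.41, edgeR adjusted p = 0.00401).

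**Figure D5:**
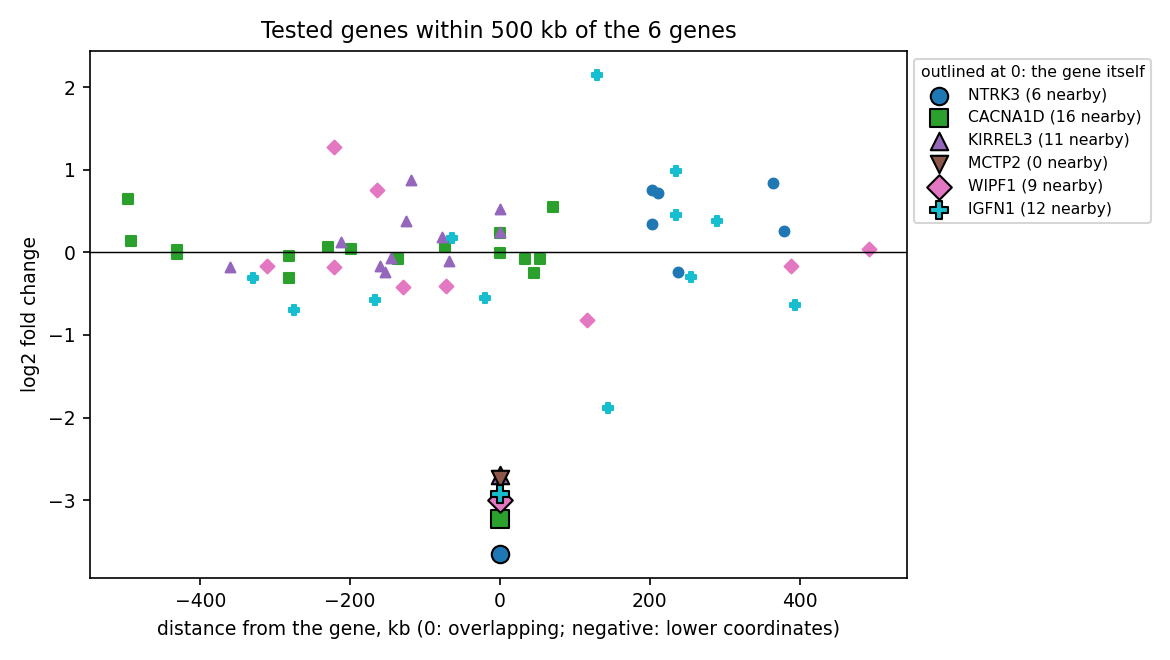
Log2 fold change of the 54 tested genes within 500 kb of the 6 genes against their distance in kb, with the 6 genes outlined at 0. Most neighbours lie between -1 and 1, above the 6 genes, which lie between -3.65 and -2.70.

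Some annotated genes lie across the 6. CACNA1D shares 1399 exon bases with CHDH on the opposite strand, which was at 4.05 and 4.01 CPM (-0.01 ± 0.17, edgeR adjusted p = 0.954). KIRREL3 shares 205, WIPF1 154 and IGFN1 89 exon bases with antisense genes that were not matched in the count table, while NTRK3 and MCTP2 share none with any annotated gene. The strand setting of the counting was not given in the sources used here, so reads in the shared bases cannot be assigned with certainty.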

How the data were processed

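Expression was measured by RNA sequencing of 3 control and 3 BCLAF1-depleted libraries of A549 cells, grouped and numbered by their titles. Oligo(dT) beads were used to select RNA, and libraries were directional, per the labels' protocols, so levels depend on intact polyadenylated transcripts. The authors deposited whole-number read counts for 29122 genes and FPKM values for 28878 genes, 1 column per library. The submitters' processing notes name bcl2fastq, TopHat2 and edgeR with build GRCh38. Versions, roles, the counting tool and the strand setting were not given in the sources used here.

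Counts were tested with edgeR 4.0.16 (R 4.3.3) by quasi-likelihood with group as the only term, TMM scaling and filterByExpr (minimum count 10, minimum total 15), with Benjamini-Hochberg adjustment over 15907 genes. All 6 genes passed the filter. The SE is the log2 fold change divided by the root of F. The SE therefore takes in spread between libraries. The floor (3 counts) covers counting error only, as the labels' protocols name no molecular identifiers. GENCODE release 29 gave positions, exon lengths and GC content (28362 genes matched by identifier without version, among them 99.2% of tested genes), and may not be the release behind the counts. Promoter windows are from RefSeq (GRCh38.p14): 35116 windows of 27305 symbols as background, and for each of the 6 genes the start nearest to the 5′ end of the GENCODE gene.

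The 6 genes, the lists and the tests were chosen with earlier results of these data known. Besides the 6 genes, BCLAF1 and their paralogues, the rule named up to 3 called genes per list and direction, and the 3 most correlated genes of at least 5 CPM per gene. It also named the nearest tested gene on either side that did not overlap the gene itself. Alternatives were DESeq2 size factors, upper-quartile scaling, library totals alone, no filter or at least 5 CPM in 3 libraries, the replicate number as a block, removal of length and GC trends (mgcv 1.9.3, basis size 8), the Wald test of DESeq2 1.42.0, limma 3.58.1 on log2(FPKM + 1) and log2(FPKM + 0.1), and each library left out. One gene related to the 6 is not reported here. The edgeR script was tested on simulated data.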

Additional observations from a re-analysis of the deposited data

How the results depend on the processing

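Over 17 alternatives every one of the 6 genes kept its direction. The changes ran from -3.86 to -1.06 for NTRK3, -3.50 to -1.21 for CACNA1D, -2.92 to -1.49 for KIRREL3, -2.97 to -0.97 for MCTP2, -3.21 to -1.58 for WIPF1 and -3.18 to -2.53 for IGFN1. The smallest changes were all from log2(FPKM + 1). Mean FPKM ran from 1.25 (MCTP2) to 12.2 (IGFN1) in control and from 0.0833 (NTRK3) to 1.29 (IGFN1) in BCLAF1-depleted libraries. The pseudocount is thus large beside most of the BCLAF1-depleted values. Library totals alone moved the median of all tested genes to -0.21 and the share of lower calls from 50.4 to 74.1%, and limma on FPKM moved that share to 79.7% with a pseudocount of 1 and 79.6% with 0.1. With each library left out in turn, calls ranged from 2938 to 7936 genes in all, 8 to 31 of neurotrophin signalling, 7 to 15 of calcium channels, 9 to 20 of immunoglobulin adhesion, 12 to 23 of C2-domain genes, 7 to 24 of actin assembly, 4 to 8 of sarcomeric genes and 6 to 20 of nearby genes. With at least 5 CPM required, calcium channels had 3 calls and sarcomeric genes 2. Signs turned for WIPF2 (0.05 with length and GC correction and 0.05 with the block added), WIPF3 (-0.05 with library totals alone, -0.01 and -0.07 on FPKM with pseudocounts 1 and 0.1), TKT (-0.16, -0.24 and -0.24 in the same settings and -0.05 to 0.12 over left-out libraries), IL17RB (-0.18 to 0.06 over left-out libraries) and ETS1 (-0.03 and -0.05 on FPKM). The cause was not tested. Deviations from the group means correlated weakly between same-numbered libraries (0.036, 0.047 and 0.119). Between unlike-numbered ones the values ran from -0.076 to 0.033, so they do not settle whether the numbers mark pairs. With the replicate block 6007 genes were called, and the call of MRPL46 was lost (0.0602), and with length and GC correction and the block 5609. Among the named genes the block alone changed no other call. On FPKM, limma did not call RYR1 or GAB2 with either pseudocount, RAC1, ARPC1B, BEX3, CACNB4 or MRPL46 with either, or RIMS2 and SYT16 with a pseudocount of 1, and SPC25 was not called without control replicate 1 or 2 (edgeR adjusted p = 0.0515 and 0.0565). Counting error is widest for the genes under 1 CPM.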
